A study of Sus scrofa with 6 samples.

Results

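TCF4, ID2 and BATF3 encode transcription regulators that act in the development of dendritic cells (DC), and their transcripts were measured in 3 cell subsets that had been sorted from pig blood as candidate DC. They are 3 of the 23 genes to which the scanner files of these custom 1-colour Agilent porcine arrays give a symbol, and were taken by the probes that carry those symbols, SS_Pos_ENSSSCG4535 for TCF4, SS_Pos_ENSSSCG8645 for ID2 and SS_Pos_ENSSSCG15594 for BATF3. These are 3 probes of the 41910 gene probes on the array, with 15 spots per array. The 3 subsets were plasmacytoid DC, DC XCR1+ and DC XCR1-, with 2 arrays each and 6 arrays in all.

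All cells came from the peripheral blood of adult control pigs of a down-sized breed, with no treatment named, and no allele or transgene is involved. Plasmacytoid DC were sorted as CD4+ cells of intermediate CD172 that lacked CD3 and CD14. The other subsets were stained with a separate panel, from which large MHC class II+ cells without CD4, CD14 or immunoglobulin were kept. Within that gate DC XCR1+ were the CADM1+ CD172lo cells and DC XCR1- the CADM1- cells, for which the labels give high or intermediate CD172 and the study's text says that those of intermediate CD172 were left out. No antibody to XCR1 was used, so that CADM1 stood in for it in the sort. RNA of distinct animals was mixed where the amount was low, and the labels do not say which arrays hold a mixture, nor that the replicates are separate animals, so that the p-values below measure the spread between arrays. In the deposited column names 1 code, which no source used here explains, recurs on 3 arrays, which are replicate 1 of DC XCR1- and of DC XCR1+ and replicate 2 of plasmacytoid DC, so that these may share an origin. The codes of replicate 2 of DC XCR1- and of DC XCR1+ are not equal but share digits. Whether those arrays share an origin as well is not known. The study had chosen TCF4 and BATF3 as control genes and examined them by quantitative PCR in the sorted candidates before the arrays were run. All 3 genes also stand in signatures that the study derived with these arrays. The direction of these genes on the arrays is therefore not independent of how the study chose its populations and its genes.

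TCF4, also named E2-2, is an E protein, a basic helix-loop-helix factor that binds DNA as a dimer and is known as the regulator that establishes and maintains the plasmacytoid DC fate. ID2 has the helix-loop-helix part but no basic region, so that it pairs with E proteins and keeps them from binding DNA, and it is known to be needed for XCR1-expressing conventional DC. BATF3 is a basic leucine zipper factor that works with partners of the JUN and IRF families and is required for the development of XCR1-expressing conventional DC.

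Each gene was measured by a single 60-base oligonucleotide. The 3 probes are shown because every value below is the brightness of one of these sequences, printed 5′ to 3′ as the array holds them. The capitals mark the longest run that occurs, on the opposite strand, in a 60-mer with another sequence on the same array.
TCF4: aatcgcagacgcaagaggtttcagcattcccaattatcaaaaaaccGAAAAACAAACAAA
ID2: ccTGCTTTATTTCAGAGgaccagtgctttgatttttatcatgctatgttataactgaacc
BATF3: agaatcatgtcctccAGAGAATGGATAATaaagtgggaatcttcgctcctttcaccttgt

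These shared runs were 14 bases for TCF4, 15 for ID2 and 14 for BATF3. Among each other the 3 probes shared runs of at most 7 bases. The GC content was 36.7% for the TCF4 and the ID2 probe and 41.7% for the BATF3 probe, beside a median of 41.7% over all gene probes. The files mark the 3 probes as unmapped and name no genome build, so no position is given for them.

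For BATF3, the array probe and the reverse primer of the study's quantitative PCR covered the same stretch. The first 15 bases of the probe were the reverse complement of the first 15 bases of that primer, both in capitals here.
BATF3 reverse primer: GGAGGACATGATTCTgcacaac
BATF3 probe: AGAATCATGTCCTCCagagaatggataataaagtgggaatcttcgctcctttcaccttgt

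The BATF3 forward primer shared at most 5 bases in a row with the probe, and neither TCF4 primer shared more than 4 with the TCF4 probe. No ID2 primer for the pig was listed.

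The probes gave nearly the same value wherever they were printed. TCF4 and BATF3 were read from 5 spots each and ID2 from 4, since the fifth ID2 spot carried an outlier flag and was left out on every array. That spot minus the mean of the other ID2 spots was between -0.21 and -0.018 on the log2 scale. The SD between spots of a probe on 1 array lay between 0.017 and 0.097 on the log2 scale, and the coefficient of variation of the signal between 1.19% and 6.79%. The same 60-mers were also printed once each under other names, SS_S1A_ENSG196628 for that of TCF4, SS_S1A_ENSG115738 and A_72_P077756 for that of ID2, and SS_S1A_ENSG123685 for that of BATF3. Over all arrays the level of these 4 spots minus that of the probe with the symbol was between -0.16 and 0.020 on the log2 scale. Such spots repeat the reading of 1 labelled RNA and are not replicates of a subset.

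**Figure D1:**
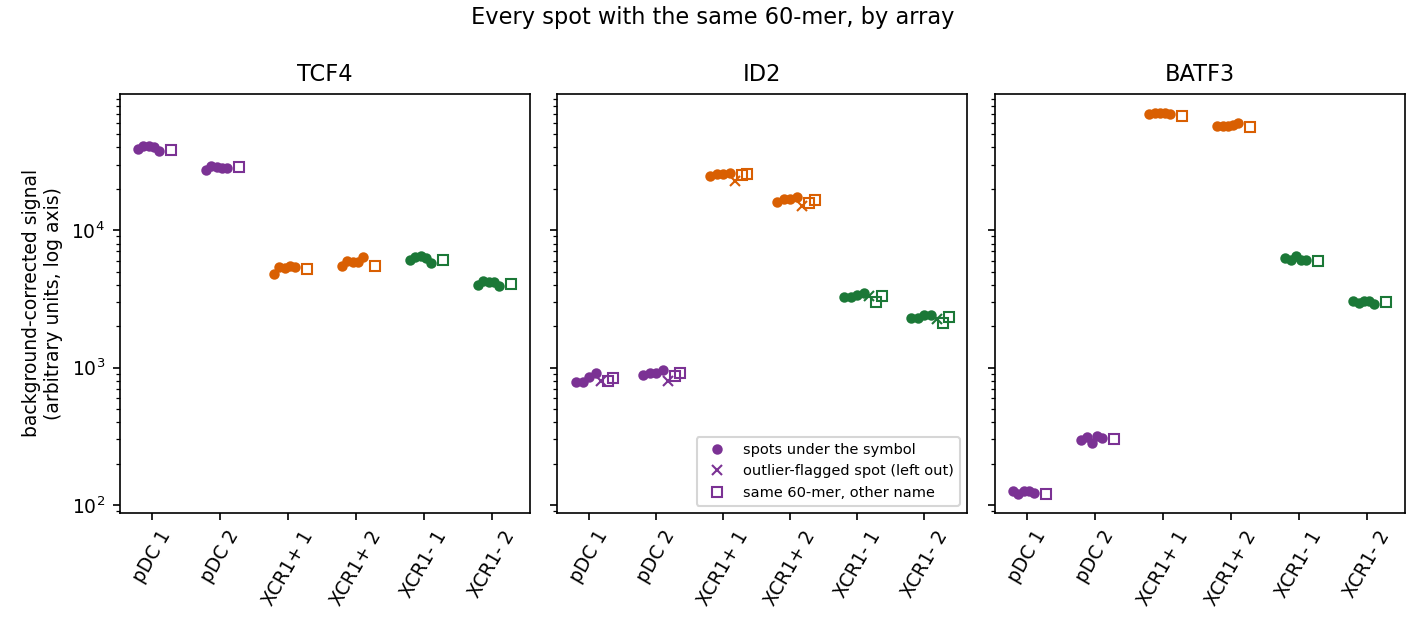
Background-corrected signal (arbitrary units, log axis) of every spot that carries the TCF4, ID2 or BATF3 60-mer, on each of the 6 arrays (pDC, plasmacytoid DC). Filled points are spots under the symbol, crosses the outlier-flagged ID2 spot, and open squares the same sequence under another name. Spots of 1 array lie close together beside the distances between subsets, except for TCF4 between DC XCR1+ and DC XCR1-, where the subsets are not apart. The widest gap within a subset is between the 2 BATF3 readings of plasmacytoid DC.

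The values are levels, that is log2 of the background-corrected signal minus the 75th percentile of all gene spots of the same array. A level of 0 is thus the brightness that 75 percent of the gene spots stay below, and a difference of 1 is a doubling of the signal so scaled. Fold differences below are taken from levels, and can differ from ratios of the unscaled signals given in units. Probes differ in how brightly they shine for the same amount of RNA, so each level is compared with that of the same probe on other arrays. By the call of the scanner software, all 3 probes were well above background on all 6 arrays, and no spot was saturated. On each array between 54.3% and 64.1% of the gene spots were well above background. A bulk sample does not tell fewer cells that carry a transcript from less of it in each cell.

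The labels were set beside the markers that the files name. XCR1, FLT3 and CD14 were also control genes of the study's quantitative PCR, by which its sorted candidates were judged. CADM1 and CD14 were markers of the sort. These markers are therefore no independent check of the labels. XCR1 was well above background on the DC XCR1+ arrays alone, at levels of 0.47 and 0.54. The brighter CADM1 probe, the marker of the sort, stood at 0.91 and 0.93 in DC XCR1+ and at -2.41 and -2.90 in DC XCR1-. CLEC9A, a further marker of this kind of DC, was not well above background on either DC XCR1+ array. The receptor of monocytes and macrophages CSF1R was at 3.68 and 3.49 in DC XCR1-, and CD14, by which cells had been gated out, was at 1.90 and 3.26 there against -2.47 and -2.03 in DC XCR1+. FLT3, the growth factor receptor of DC, was at 0.91 and 0.73 in DC XCR1+ and 0.86 and 0.64 in plasmacytoid DC, but at -1.50 and -1.76 in DC XCR1-. The markers of DC XCR1- were thus in part those of monocytes, so that a comparison with DC XCR1- below is one with the cells of that gate and not with an established kind of DC. The name is used as the label gives it. The files name no marker of B cells, T cells, granulocytes or erythrocytes, and the part of such cells in the results below was not tested.

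TCF4 was the highest in plasmacytoid DC, where its scaled signal was about 7 times that of either other subset. On the plasmacytoid DC arrays the TCF4 level was 7.21 and 6.96, at mean signals of 39699 and 28421 units. In DC XCR1+ it was 4.06 and 4.46, at signals of 5281 and 5902 units. In DC XCR1- it was 4.23 and 4.14, at signals of 6184 and 4127 units. Both plasmacytoid DC arrays lay above all 4 others, and the DC XCR1+ arrays lay on either side of the DC XCR1- arrays.

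Within its array, the TCF4 probe was brighter than 98.8% and 98.5% of the 41901 gene probes in plasmacytoid DC, at ranks 486 and 626 from the brightest. It stayed among the bright probes in the other subsets, above 94.2% and 95.3% of them in DC XCR1+ and above 94.6% and 94.2% in DC XCR1-. TCF4 was thus read well above background in DC XCR1+ and DC XCR1- too.

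The mean TCF4 level was 7.09 ± 0.17 (SD, n = 2) in plasmacytoid DC, 4.26 ± 0.28 (SD, n = 2) in DC XCR1+ and 4.18 ± 0.063 (SD, n = 2) in DC XCR1-. The step from DC XCR1+ to plasmacytoid DC was 7.08-fold, with a 95% interval of 4.60 to 10.9 (limma over all 6 arrays, adjusted p = 0.00093). That from DC XCR1- to plasmacytoid DC was 7.48-fold, with an interval of 4.86 to 11.5 (limma adjusted p = 0.00062). Of the 26372 probes tested, 28.8% were called in the former comparison, 13.6% in the direction of TCF4, and 32.7% in the latter, 15.7% in that direction. Larger log2 differences than that of TCF4 were found in 7.03% and 8.69% of the tested probes. Between DC XCR1+ and DC XCR1- the TCF4 ratio was 1.06, with a 95% interval of 0.686 to 1.63 (limma adjusted p = 0.87), and the sign of this difference changed without DC XCR1+ replicate 2 (log2 difference -0.12) and with another centring of the arrays. In that last comparison 16.1% of the probes were called, 7.79% higher in DC XCR1+ and 8.29% higher in DC XCR1-. The order of the TCF4 levels was therefore plasmacytoid DC first and the other subsets after it, with no order between these beyond their spread. The same calls, higher in plasmacytoid DC than in both others with these not separated, were made for 7.69% of the probes tested.

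**Figure D2:**
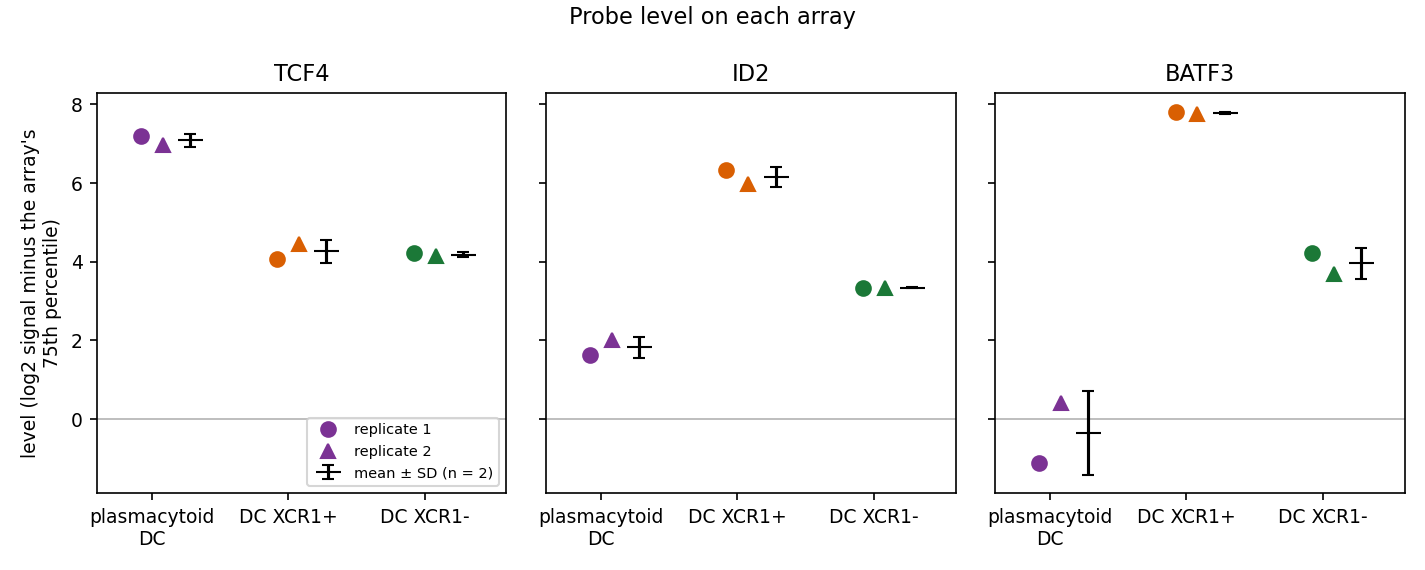
Level of the TCF4, ID2 and BATF3 probes (log2 signal minus the array's 75th percentile) on each array, with replicate 1 as a circle, replicate 2 as a triangle and a bar for the mean ± SD of n = 2 arrays. TCF4 is high on both plasmacytoid DC arrays and at one height elsewhere, whereas ID2 and BATF3 both step down from DC XCR1+ to DC XCR1- to plasmacytoid DC.

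ID2, the inhibitor that pairs with TCF4, had the highest level in DC XCR1+ and the lowest in plasmacytoid DC. The ID2 level was 6.33 and 5.97 on the DC XCR1+ arrays, at mean signals of 25457 and 16758 units. It was 3.35 and 3.33 in DC XCR1-, at 3358 and 2355 units, and 1.63 and 2.01 in plasmacytoid DC, at 833 and 918 units. The arrays of the 3 subsets did not overlap in any pair. Such non-overlap was common, at 66.5%, 68.4% and 67.6% of the probes tested for plasmacytoid DC against DC XCR1+, plasmacytoid DC against DC XCR1-, and DC XCR1+ against DC XCR1-.

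The ID2 probe was brighter than 98.1% and 97.8% of the gene probes of its array in DC XCR1+, than 91.9% and 91.7% in DC XCR1-, and than 85.1% and 86.1% in plasmacytoid DC. In plasmacytoid DC, where ID2 was lowest, it still had ranks of 6237 and 5806 from the brightest.

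In means, ID2 was at 6.15 ± 0.26 (SD, n = 2) in DC XCR1+, 3.34 ± 0.012 (SD, n = 2) in DC XCR1- and 1.82 ± 0.27 (SD, n = 2) in plasmacytoid DC. ID2 was 20.1-fold higher in DC XCR1+ than in plasmacytoid DC, with a 95% interval of 12.9 to 31.3 (limma adjusted p = 0.00029), where 15.2% of the probes were called in that direction. It was 7.03-fold higher in DC XCR1+ than in DC XCR1-, a log2 difference of 2.81 with an interval of 2.17 to 3.45 (limma adjusted p = 0.0016), where 7.79% were called that way. The smallest of its steps was that from plasmacytoid DC up to DC XCR1-, at 2.86-fold with an interval of 1.84 to 4.46 (limma adjusted p = 0.0072), where 16.9% were called in that direction. In that comparison 22.9% of the probes tested had a larger log2 difference than ID2, against 2.44% and 5.31% in the other comparisons. This smallest ID2 step did not pass the threshold without DC XCR1- replicate 1 (adjusted p = 0.055) or without DC XCR1- replicate 2 (adjusted p = 0.056) in limma, where the log2 differences of 1.51 and 1.52 were close to the 1.52 over all arrays.

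BATF3 had its highest level in DC XCR1+ and its lowest in plasmacytoid DC, with a wider range than TCF4 or ID2. In DC XCR1+ the BATF3 level was 7.81 and 7.77, at mean signals of 70794 and 58338 units. In DC XCR1- it was 4.23 and 3.68, at 6209 and 3006 units. In plasmacytoid DC it was -1.11 and 0.41, at 125 and 302 units, or 0.193% and 0.468% of the mean signal in DC XCR1+. The arrays of the 3 subsets did not overlap. This also held for 66.5% of the probes tested in plasmacytoid DC against DC XCR1+. It held for 68.4% in plasmacytoid DC against DC XCR1- and for 67.6% in DC XCR1+ against DC XCR1-.

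By rank, BATF3 was above 99.1% and 99.0% of the gene probes of its array in DC XCR1+, at places 397 and 405 from the brightest, and above 94.6% and 92.9% in DC XCR1-. In plasmacytoid DC it was above 67.2% on 1 array and 77.6% on the other. These plasmacytoid DC readings were still well above background, and on every array the dimmest probe that was so called had a level of -4.18 or lower.

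**Figure D3:**
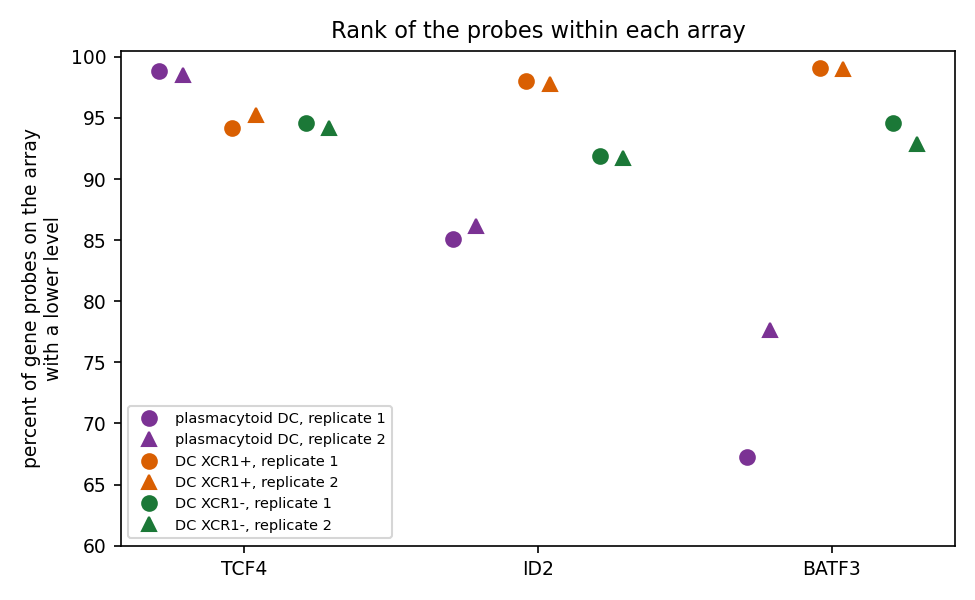
Percent of all gene probes on the same array with a lower level than the TCF4, ID2 or BATF3 probe, with 1 point per array; the axis starts at 60. BATF3 spans from 67.2% on a plasmacytoid DC array to 99.1% on a DC XCR1+ array, whereas TCF4 stays above 94% on all 6.

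The mean BATF3 level was 7.79 ± 0.027 (SD, n = 2) in DC XCR1+, 3.96 ± 0.39 (SD, n = 2) in DC XCR1- and -0.35 ± 1.07 (SD, n = 2) in plasmacytoid DC. BATF3 was 282-fold higher in DC XCR1+ than in plasmacytoid DC, with a 95% interval of 120 to 662 (limma adjusted p = 0.0003). This log2 difference of 8.14 was the 16th largest of the 12807 that ran in that direction, and 0.072% of the tested probes had a larger one in either direction. BATF3 was 14.2-fold higher in DC XCR1+ than in DC XCR1-, with an interval of 6.05 to 33.5 (limma adjusted p = 0.0052). This call was lost without DC XCR1- replicate 2 (limma adjusted p = 0.051), at a log2 difference of 3.55 against 3.83 over all arrays. BATF3 was also 19.8-fold higher in DC XCR1- than in plasmacytoid DC, with an interval of 8.42 to 46.5 (limma adjusted p = 0.0017). In the order of these BATF3 comparisons, 15.2%, 7.79% and 16.9% of the probes tested were called in the direction of BATF3. ID2 and BATF3 thus had the same order of levels, with every step called in the fit without a block, which held for 0.762% of all probes tested. With the scan day as a block, DC XCR1+ minus DC XCR1- was not called for ID2 or BATF3 (log2 differences 2.99 and 3.57). Nor was ID2 in plasmacytoid DC minus DC XCR1- (-1.52).

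The 2 plasmacytoid DC arrays differed in BATF3 by 1.51 on the log2 scale, or 2.85-fold, with the higher level on replicate 2. The residual SD of BATF3 in the fit was 0.66, larger than that of TCF4 at 0.20 or ID2 at 0.21, and 11.7% of the probes tested had a larger one. Without plasmacytoid DC replicate 1, the log2 difference between DC XCR1+ and plasmacytoid DC was 7.38, and without replicate 2 it was 8.89. The step from plasmacytoid DC to DC XCR1- likewise read 3.55 without replicate 1 and 5.06 without replicate 2. The call held in each case, while the size of every BATF3 difference against plasmacytoid DC depended on which array was used.

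Other transcripts also differed between these 2 arrays. On replicate 1, where BATF3 was lower, CD14 was at -0.73 and CSF1R at -2.95, against -2.66 and -4.48 on replicate 2. The brighter CADM1 probe was at -4.14 on replicate 1 and not well above background on replicate 2. The dimmer CADM1 probe was not well above background on either array. TNF was at 5.97 on replicate 1 and 8.09 on replicate 2. SIRPA, which encodes CD172, was at -3.21 and -2.35, and FLT3 at 0.86 and 0.64. CLEC9A was well above background on replicate 1 alone, and XCR1 on neither array. ID2 was higher on replicate 2 as well, at 2.01 against 1.63. The part of other cells in the BATF3 level was not tested.

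The arrays lay on 4 slides and were scanned on 3 days, and 2 slides held arrays of 2 subsets. On the slide shared by plasmacytoid DC replicate 1 and DC XCR1- replicate 1, the plasmacytoid DC array was higher by 2.98 for TCF4 and lower by 1.71 for ID2 and 5.34 for BATF3, in log2. On the slide shared by plasmacytoid DC replicate 2 and DC XCR1+ replicate 1, it was higher by 2.90 for TCF4 and lower by 4.32 for ID2 and 7.40 for BATF3. Each of these had the direction found over all arrays. Within the day that held 4 arrays, DC XCR1+ was higher than DC XCR1- by 2.99 for ID2 and 3.57 for BATF3, and its TCF4 level was lower by 0.17, from 1 array each. In a fit with the scan day as a block, which rests on these 4 arrays, ID2 and BATF3 in DC XCR1+ against DC XCR1- did not pass the threshold (limma adjusted p = 0.081 and 0.13), nor did ID2 in plasmacytoid DC against DC XCR1- (0.14). Among the 3 arrays with the recurring code, plasmacytoid DC was above DC XCR1- by 2.74 for TCF4 and below it by 1.34 for ID2 and 3.83 for BATF3.

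**Figure D4:**
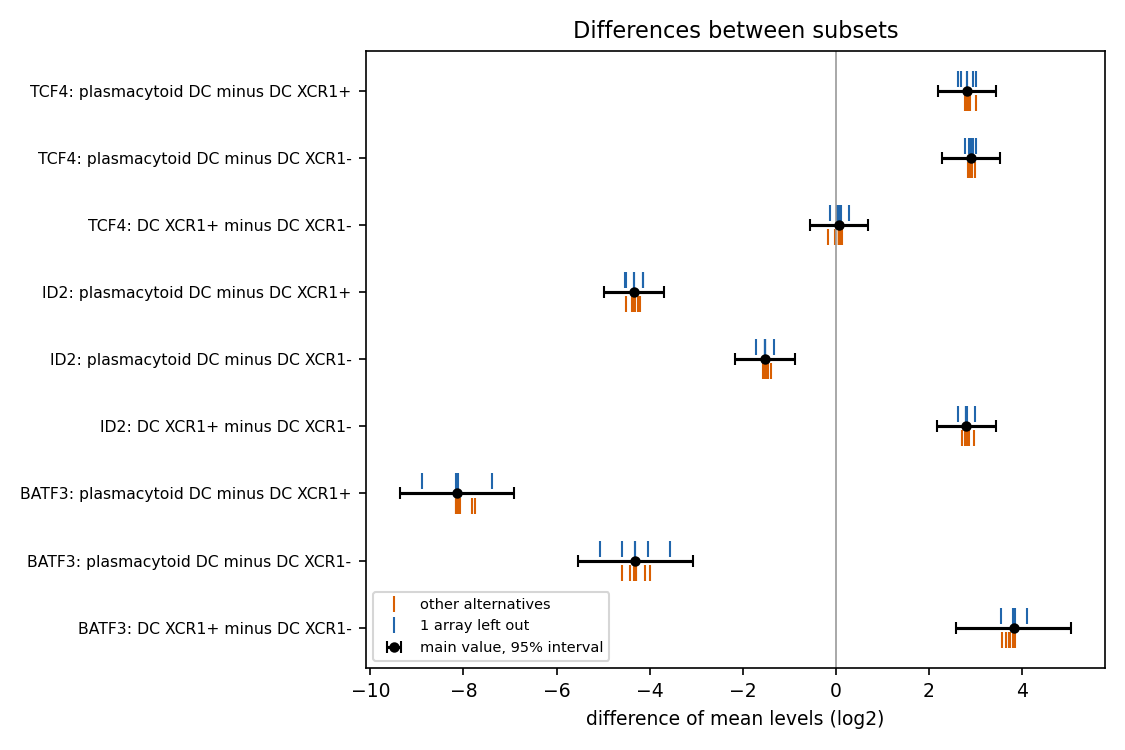
Difference of mean level (log2) between each pair of subsets for TCF4, ID2 and BATF3, with the limma 95% interval over 6 arrays; blue ticks are the values with 1 array left out and orange ticks those under other processing. The ticks stay on the same side of 0 for all but TCF4 in DC XCR1+ against DC XCR1-, and spread most for BATF3 against plasmacytoid DC.

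The balance of TCF4 to its antagonist ID2 was taken as the TCF4 level minus the ID2 level on the same array, in which the scaling of the array cancels. Since the probes have no common scale, neither the size nor the sign of a balance on 1 array is read, and the comparison is how it moved between subsets. The TCF4 to ID2 balance was 5.58 and 4.95 on the plasmacytoid DC arrays, 0.88 and 0.81 on the DC XCR1- arrays and -2.27 and -1.51 on the DC XCR1+ arrays. The 3 subsets did not overlap, and DC XCR1- lay between the others. Among single probes tested, 66.5% did not overlap in plasmacytoid DC against DC XCR1+ and 68.4% in plasmacytoid DC against DC XCR1-. In DC XCR1+ against DC XCR1- it was 67.6%. How often a difference between other probes does so was not computed.

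From DC XCR1+ to plasmacytoid DC the TCF4 to ID2 balance was higher by 7.15 on the log2 scale, a 142-fold difference of the ratio. Of this, 2.82 came from more TCF4 and 4.33 from less ID2. From DC XCR1- to plasmacytoid DC it was higher by 4.42, or 21.4-fold, with 2.90 from TCF4 and 1.52 from ID2. Between DC XCR1- and DC XCR1+ the balance differed by 2.73, or 6.65-fold, and there TCF4 differed by 0.080 and ID2 by 2.81. In these values the larger share lay in TCF4 between plasmacytoid DC and DC XCR1-. Between DC XCR1+ and DC XCR1- the ID2 difference of 2.81 exceeded that of the balance, and the TCF4 difference of 0.080 ran against it. Each of these comparisons gave an exact two-sided permutation p of 0.333, the smallest that 2 against 2 arrays allow with 6 arrangements. A balance difference is made of the same readings as the differences above and adds no evidence to them.

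The balance of BATF3 to ID2 differed less between subsets, since both genes had the same order of levels. It was 1.48 and 1.80 on the DC XCR1+ arrays, 0.89 and 0.35 on the DC XCR1- arrays and -2.74 and -1.60 on the plasmacytoid DC arrays. These did not overlap either, though the lowest DC XCR1+ array was only 0.59 above the highest DC XCR1- array. For this balance too, how often a difference between other probes does so was not computed. From plasmacytoid DC the BATF3 to ID2 balance was higher by 3.81 in DC XCR1+, or 14.0-fold, and by 2.79 in DC XCR1-, or 6.92-fold. DC XCR1+ stood above DC XCR1- by 1.02, or 2.03-fold. The BATF3 step was thus larger than the ID2 step in each pair, and the exact two-sided permutation p was again 0.333, the smallest possible. Without plasmacytoid DC replicate 1 the step between DC XCR1+ and plasmacytoid DC was 3.24 and without replicate 2 it was 4.38, and for DC XCR1- it was 2.22 and 3.36.

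**Figure D5:**
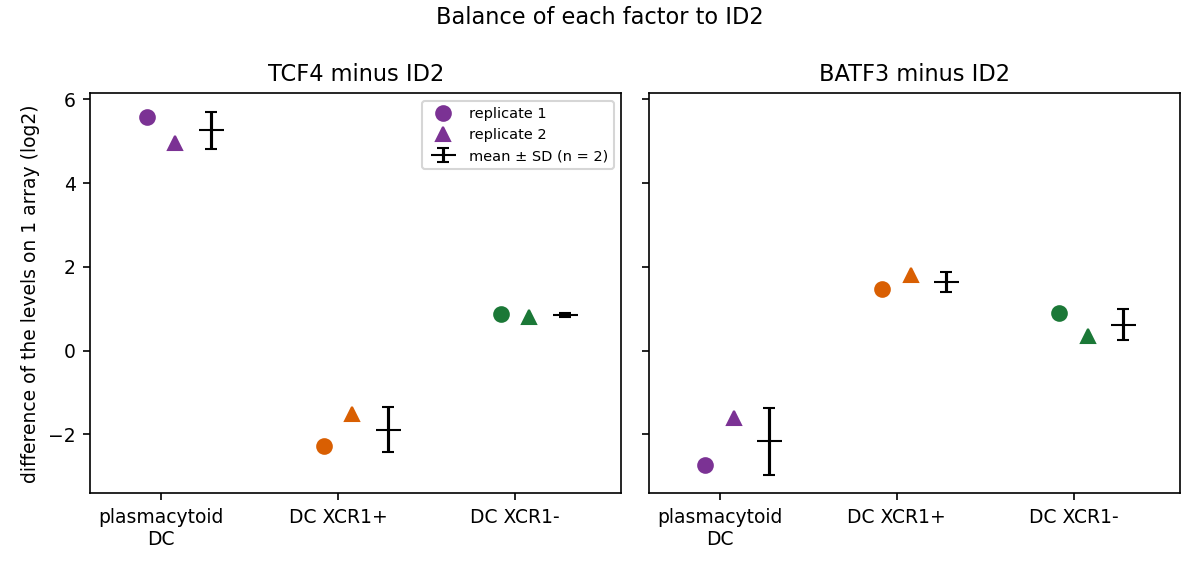
Difference of 2 probe levels on the same array (log2), TCF4 minus ID2 on the left and BATF3 minus ID2 on the right, with 1 point per array and a bar for the mean ± SD of n = 2. Only the distance between subsets can be read. In TCF4 minus ID2 the arrays of the 3 subsets do not overlap, and BATF3 minus ID2 mainly sets plasmacytoid DC apart.

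Of the other genes that carry a symbol in the files, those with a probe well above background on both arrays of some subset were taken by their brightest probe, and the probes marked as negative by design, FOXO3 among them, were left out. This gave 10 genes to compare with each of the 3 by the Pearson correlation of their levels over the 6 arrays, which fall into 3 subsets and share their libraries. Among these, ID2 and BATF3 were most like each other, at r = 0.974. Of the probes tested, 0.713% had a higher r with ID2 and 1.2% with BATF3. CADM1, the adhesion molecule of the sort, came next for both, at 0.931 for ID2 and 0.909 for BATF3, with 2.95% and 5.84% of the probes above these. TNF, an inflammatory cytokine, had the highest r of the 10 with TCF4, at 0.942, followed by UNC93B1, the chaperone of endosomal Toll-like receptors, at 0.855, with 4.96% and 12.4% of the probes above these. TNF and UNC93B1 were at the other end for ID2, at -0.859 and -0.959, where 94.3% and 99.1% of the probes had a higher r, and for BATF3, at -0.91 and -0.963, where 96.1% and 99.1% did. Opposite to TCF4 stood BATF3, at -0.864, and CADM1, at -0.762, while TCF4 and ID2 correlated at -0.754, and 88.2%, 82.1% and 81.7% of the probes had a higher r with TCF4 than these. The size of each r reflects the 3 subset means together with the spread between arrays of a subset, and is a description.

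Of a list of 27 E proteins, ID proteins, BATF factors and other DC transcription factors, the files name 4 genes by symbol. Besides TCF4, ID2 and BATF3 this was FOXO3, a forkhead factor, whose 2 probes carry the mark of a negative design in their names. Its brighter probe had levels of 3.81 and 4.09 in plasmacytoid DC, 3.37 and 3.05 in DC XCR1+ and 4.25 and 4.56 in DC XCR1-. FOXO3 was lower in DC XCR1+ than in DC XCR1- by 1.20 in log2 (limma adjusted p = 0.03), while the other comparisons of this probe did not pass the threshold. The dimmer FOXO3 probe had the same directions, and with it FOXO3 was also higher in plasmacytoid DC than in DC XCR1+, by 0.78 (limma adjusted p = 0.047). Of 9 comparisons of TCF4, ID2 and BATF3, 8 passed it, with log2 differences from 1.52 to 8.14, where 28.8%, 32.7% and 16.1% of all probes tested passed in plasmacytoid DC against DC XCR1+, plasmacytoid DC against DC XCR1-, and DC XCR1+ against DC XCR1-. In the remaining one, TCF4 in DC XCR1+ against DC XCR1-, the log2 interval ran from -0.54 to 0.70.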

How the data were processed

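Cy3-labelled amplified RNA of each sorted subset was hybridized to 1 array. The authors deposited spot intensity tables from Agilent Feature Extraction 10.7.3.1 (protocol GE1_107_Sep09), with raw and background-corrected intensity on a linear scale, and a table of normalized log2 values. How that table was scaled is not given in the sources used here, apart from limma being named in the submitters' processing notes. In that log2 table, 5 columns of other samples were not used. Its log2 values, used as an alternative, had correlations of 0.984 to 0.989 with those computed from the scanner files.

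From the processed signal, control spots (1417 per array) and 19 outlier-flagged gene spots were left out. Log2 values minus each array's 75th percentile were averaged over the spots of a probe. limma 3.58.1 in R 4.3.3 was fitted to all 6 arrays with 1 coefficient per subset, without a block, and moderated by empirical Bayes. P-values were adjusted by Benjamini-Hochberg at 0.05 over the 26372 probes that were well above background in 1 subset or more, on both of its arrays. The other 15529 probes were not tested. The fit was tested on simulated data. These were drawn as independent arrays, without effects of slide, scan day or shared origin, and so do not bear on such effects. The number of arrays limits the precision, with 3 residual degrees of freedom. Balances were compared by exact permutation tests in Python 3.11.15.

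TCF4, ID2, BATF3, the list of transcription factors and the markers were chosen with earlier results of these data known. Beside the 3 genes, those with a symbol whose levels had the 2 highest and the 2 lowest correlations with each were named, by the brightest probe. FOXO3 was named from the list. TNF and the marker levels on the plasmacytoid DC arrays were given because BATF3 differed between these arrays.

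The alternatives were normexp background (offset 50), quantile normalization, median centring, the deposited values, the median of all spots, testing all probes, a variance prior with a trend, only the arrays of both subsets, a random effect of the slide, a block for the replicate number, and each array left out in turn. The scan day as a fixed block, a block for the code that recurs in the deposited column names, and the average over all spots of the same 60-mer were added after seeing the data.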

Additional observations from a re-analysis of the deposited data

How the results depend on the processing

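Over the 8 comparisons that passed the threshold, 146 of 152 alternatives kept the call, 6 lost it and 0 changed its direction. Leaving out either array of the subset not compared gave the same fit as using only the arrays of both subsets. This tally thus counts that outcome more than once for each comparison. With the scan day as a block, which leaves 1 DC XCR1+ array, 1 DC XCR1- array and both plasmacytoid DC arrays to compare, the log2 differences without a call were -1.52 for ID2 in plasmacytoid DC minus DC XCR1- (limma adjusted p = 0.14), 2.99 for ID2 in DC XCR1+ minus DC XCR1- (0.081) and 3.57 for BATF3 in DC XCR1+ minus DC XCR1- (0.13). With 1 array left out, ID2 in plasmacytoid DC minus DC XCR1- ranged from -1.71 to -1.33 and BATF3 in DC XCR1+ minus DC XCR1- from 3.55 to 4.11, and the lone array of a subset is then assumed to vary like the others. TCF4 in DC XCR1+ minus DC XCR1-, 0.080 over all arrays, was -0.022 with median centring, -0.17 with the scan day as a block, and from -0.12 without DC XCR1+ replicate 2 to 0.28 with 1 array left out. The 6 balance differences kept their direction under the 54 of 72 alternatives that changed their values. The other 18, median centring and leaving out an array of the subset not compared, cannot move them.

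Over all probes, no filter on dim ones gave 4371, 5830 and 2335 calls for plasmacytoid DC against DC XCR1+, plasmacytoid DC against DC XCR1- and DC XCR1+ against DC XCR1-, and the scan day as a block 1979, 2856 and 592, in place of 7597, 8615 and 4239. Leaving out 1 array gave between 3968 and 8973, between 4236 and 10383 and between 1475 and 6129 calls.

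The labels do not say that a replicate number marks a shared animal, so the numbers were not taken as pairs. Deviations of arrays with the same number correlated at 0.27 for DC XCR1+ with DC XCR1-. They correlated at 0.089 for plasmacytoid DC with DC XCR1- and at 0.043 for plasmacytoid DC with DC XCR1+. These values do not settle whether the numbers mark pairs, least of all for DC XCR1+ with DC XCR1-. With the replicate block the differences were unchanged, such as 2.82 for TCF4, -4.33 for ID2 and -8.14 for BATF3 in plasmacytoid DC minus DC XCR1+, with adjusted p of 0.0029, 0.0012 and 0.0013, and no call of the 9 comparisons changed. The counts of calls were then 7542, 8491 and 4096. The unexplained code in the column names joins arrays of the same replicate number for DC XCR1+ and DC XCR1-, but of the other number for plasmacytoid DC. With it as a block, none of the 9 calls changed (adjusted p of the 8 from 0.0013 to 0.011) and 6915, 8086 and 3823 probes were called.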
